A study of Homo sapiens with 12 samples.

Results

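Untreated KLE cells were compared with untreated Ishikawa cells, 2 human endometrial cancer lines, to describe how the lines differ before any copper is added. The comparison takes every library that carries the untreated label, 3 of each line, which makes 6 of the 12 libraries of the series, and all 20332 genes of the count table. Ishikawa is a line known from a well differentiated endometrial adenocarcinoma, and KLE from a poorly differentiated endometrial carcinoma. Per the labels both lines were grown in DMEM/F12 with fetal bovine serum, the untreated cells were kept for the same 24 h as cells given 200 µM CuCl2, and the 3 replicates of a group are independent biological ones. The labels call the same cells both untreated and vehicle. The other 6 libraries, of the same lines after copper, entered the scaling, the count filter that set which genes were tested, the shared estimate of spread and a side by side reading at the end. Each group is 1 line, so every difference is between these cultures and not between kinds of tumour.

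Epithelial cells sit on a basement membrane, a sheet of laminin and type IV collagen that they hold through integrins, and they release proteases and growth factors that reshape it. LAMA3 and LAMB3 encode laminin chains of firm attachment in stratified and glandular epithelia, and integrins with the ITGA3 or ITGA6 and ITGB4 chains bind laminins that hold them. WNT, Notch, BMP, FGF and EGF family signals pattern the developing Müllerian duct and the cycling endometrium. Metallothioneins are small cysteine-rich proteins that bind zinc and copper, while ATP7A and ATP7B pump copper out of the cytosol.

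The labels were checked against markers. EPCAM, an epithelial adhesion molecule, gave 616 ± 41.2 CPM in Ishikawa and 792 ± 19.7 CPM in KLE, and CDH1, the epithelial cadherin, gave 415 ± 8.63 CPM in Ishikawa and 407 ± 6.03 CPM in KLE (mean ± SD, n = 3; CPM is the standard counts-per-million unit, on TMM-scaled library sizes). ESR1, the estrogen receptor, gave 0.724, 0.0382 and 0.362 CPM in the Ishikawa libraries and 0.141, 0.243 and 0.579 CPM in the KLE libraries. PGR, the progesterone receptor, gave 1.78, 0.382 and 0.362 CPM in the Ishikawa libraries and 0.141, 0.485 and 0.257 CPM in the KLE libraries. Ishikawa cells are known as estrogen receptor positive, and these libraries do not show ESR1 above the trace level of the KLE libraries. Across the 13663 tested genes the Pearson correlation of log2(CPM + 1) was 0.961 to 0.967 between libraries of different lines and 0.992 to 0.996 between libraries of 1 line; genes are not independent replicates. No protein-coding gene had a mean of at least 5 CPM in either line and under 0.1 CPM in each library of the other. With the lower limit at 0.5 CPM there were 15 such genes in KLE and 1 in Ishikawa. Cancer-testis genes vary widely among tumours. In the list of cancer-testis and germline genes 4 of 17 were called higher in KLE and 5 lower, with log2 fold changes from -2.57 to 2.14. That is 52.9% of the list, near the 50.0% of all tested genes that were called. MAGEC2 stood at 4.52 ± 0.574 CPM in Ishikawa and 14.2 ± 0.349 CPM in KLE, while MAGEA3 was not called at 159 ± 15.5 CPM in Ishikawa and 153 ± 5.45 CPM in KLE. The labels state that the lines were authenticated by short tandem repeats; their identity was not tested here, and they are named as labelled.

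The 6 libraries held 14182112 to 25057025 counts, the largest being Ishikawa control 2. That library also stood apart in its traces of stromal and secretory transcripts. DCN, a matrix proteoglycan of fibroblasts, gave 9.09, 0 and 12.3 CPM in the Ishikawa libraries and 9.37, 21.6 and 23.4 CPM in the KLE libraries, and IGKC, an immunoglobulin chain, gave 4.54, 0 and 7.41 CPM in the Ishikawa libraries and 4.01, 12.3 and 10.4 CPM in the KLE libraries. The 16 fibroblast and stromal markers summed to 37.8, 11.9 and 51.1 CPM in the Ishikawa libraries and to 38.1, 68.9 and 74.3 CPM in the KLE libraries. Of the 12 of these markers that were tested, 2 were called higher in KLE, MFAP5 and OGN, and without Ishikawa control 2 DPT was called as well. The part of these traces in the results was not tested, and values without that library are given beside the results it moves.

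Many genes differed between the lines by a small amount and fewer by a large one. Of 13663 tested genes 6837, or 50.0%, were called (edgeR quasi-likelihood test, Benjamini-Hochberg adjusted p under 0.05), 3343 (24.5%) higher in KLE and 3494 (25.6%) lower. Genes called with at least a 2-fold difference numbered 1458, or 10.7%, with 754 (5.52%) higher in KLE and 704 (5.15%) lower. Beyond 8-fold the sides were unequal, with 135 genes higher in KLE and 46 lower. The median absolute log2 fold change of all tested genes was 0.23. For 7528 tested genes, or 55.1%, the libraries of the lines did not overlap, so lack of overlap alone is common here. Without Ishikawa control 2, 6004 of the 6837 genes remained called, as did 1385 of the 1458. Because so many genes are called, a list with about 50.0% of its members called is at the background, and small differences between tight triplicates pass the test.

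**Figure D1:**
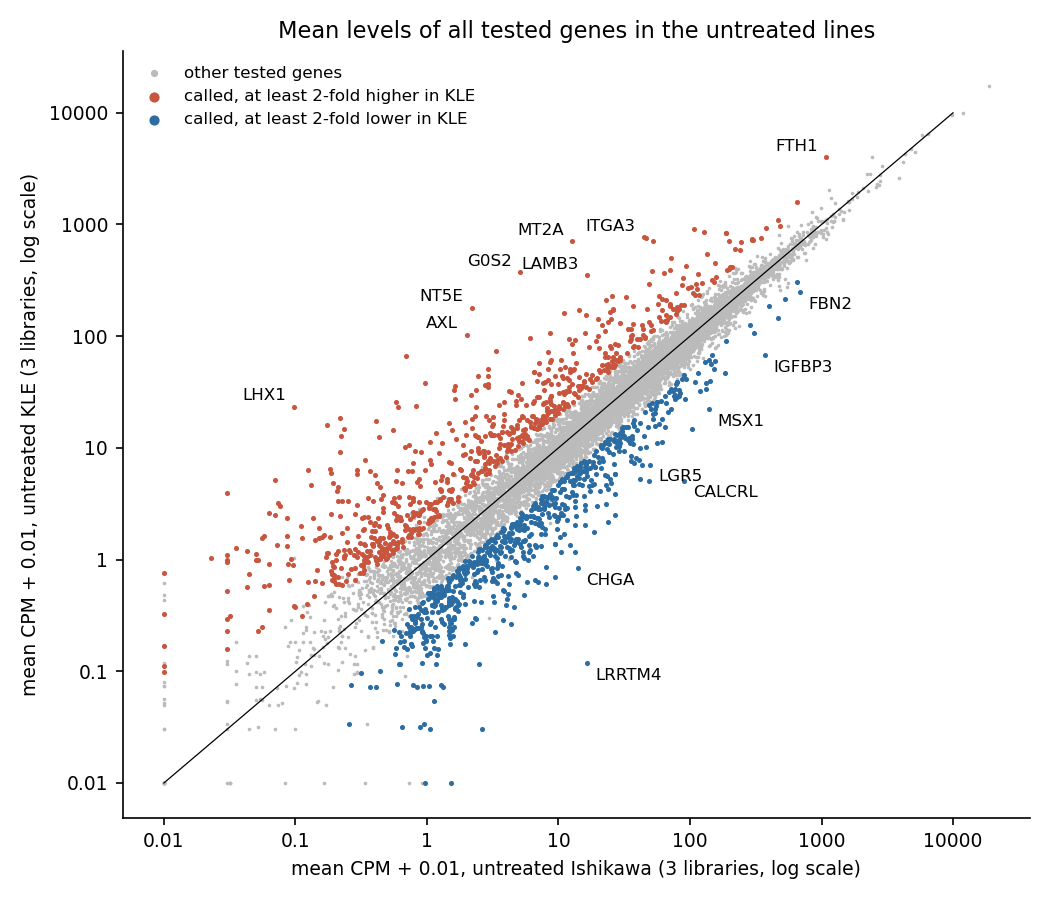
Mean CPM + 0.01 of each tested gene in the 3 untreated Ishikawa libraries (x axis, log scale) and the 3 untreated KLE libraries (y axis, log scale). Most of the 13663 genes lie along the diagonal line of equal levels, with 754 genes called at least 2-fold higher in KLE above it and 704 called at least 2-fold lower below it.

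The largest differences are given for protein-coding genes that averaged 5 CPM or more in the untreated libraries, and some rarer genes had larger log2 fold changes. LHX1, a LIM homeobox factor of the developing Müllerian and nephric ducts (ENSG00000273706, chromosome 17, 36936785 to 36944612, GRCh38), gave 0.0659, 0.0765 and 0.121 CPM in the Ishikawa libraries and 24.2, 23 and 22.9 CPM in the KLE libraries. All 3 Ishikawa libraries were near 0, with 5 counts between them against 1079 in KLE. Its log2 fold change was 7.96 ± 0.20 (± SE), an error that is too small where a group holds so few counts. NT5E, the surface enzyme CD73 that makes adenosine (chromosome 6, 85449584 to 85495791), gave 1.84, 1.8 and 2.89 CPM in the Ishikawa libraries and 183, 177 and 179.8 CPM in the KLE libraries. That is a log2 fold change of 6.40 ± 0.08 (adjusted p = 1.7e-25). G0S2, an inhibitor of the lipase ATGL (chromosome 1, 209675420 to 209676388), gave 4.94, 4.86 and 5.42 CPM in the Ishikawa libraries and 387, 360.4 and 372 CPM in the KLE libraries, and the libraries of the lines lay about as far apart as for NT5E. AXL, a receptor tyrosine kinase for GAS6 (chromosome 19, 41219203 to 41261766), gave 2.31, 1.49 and 2.17 CPM in the Ishikawa libraries and 104, 106 and 101 CPM in the KLE libraries (log2 fold change 5.76 ± 0.10). NTSR1, the neurotensin receptor, gave 0.212 ± 0.217 CPM in Ishikawa and 12.7 ± 1.08 CPM in KLE, and ADGRF1, an adhesion G protein coupled receptor, 0.957 ± 0.205 CPM in Ishikawa and 38.3 ± 4.35 CPM in KLE. ELFN2, TMEM200A and LRRN4, membrane proteins, differed by log2 6.44 ± 0.18, 6.08 ± 0.21 and 5.43 ± 0.15. MT2A also belongs to this group and is described with the metal genes.

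The genes furthest below in KLE, with the same limit of 5 CPM, included LRRTM4, CALCRL and CHGA. LRRTM4, a synaptic adhesion protein (chromosome 2, 76747719 to 77593319), gave 16.9, 15.9 and 16.9 CPM in the Ishikawa libraries and 0.141, 0.121 and 0.0643 CPM in the KLE libraries, with 5 counts in all of KLE. CALCRL, the receptor part for adrenomedullin and CGRP (chromosome 2, 187343129 to 187448460), gave 85.5, 89.9 and 96.1 CPM in the Ishikawa libraries and 4.3, 5.46 and 5.47 CPM in the KLE libraries. It was the most abundant gene of this group in Ishikawa cells by CPM (log2 fold change -4.15 ± 0.09, adjusted p = 2.2e-21). CHGA, chromogranin A of secretory granules, gave 14 ± 0.56 CPM in Ishikawa and 0.833 ± 0.225 CPM in KLE, and SNAP25, a synaptic fusion protein, 7.32 ± 0.88 CPM in Ishikawa and 1.3 ± 0.099 CPM in KLE. PPARGC1A, a coactivator of mitochondrial genes, gave 18.6 ± 1.17 CPM in Ishikawa and 1.76 ± 0.372 CPM in KLE. TNFRSF19, a TNF receptor family member, gave 27.1 ± 2.51 CPM in Ishikawa and 2.49 ± 0.489 CPM in KLE, and ADAMTS1, a secreted metalloprotease, 41.4 ± 2.18 CPM in Ishikawa and 5.29 ± 0.347 CPM in KLE. PLCH2, NPAS3, NEXMIF, PNMA8A and NCKAP5 had log2 fold changes between -3.15 and -3.75. The 20 neural and neuroendocrine markers did not move as a block, since 3 of the 9 tested were called higher in KLE, TUBB3, STX1A and SYT1, and 3 lower, CHGA, SNAP25 and NEFH.

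The laminin chains LAMA3 and LAMB3 and the integrins that bind their laminins were higher in KLE. LAMB3 (chromosome 1, 209614870 to 209652466) gave 14.9, 16.9 and 17.6 CPM in the Ishikawa libraries and 343, 358 and 351 CPM in the KLE libraries. LAMA3 (chromosome 18, 23689443 to 23956222) gave 51, 52.5 and 52.9 CPM in the Ishikawa libraries and 694, 714 and 718 CPM in the KLE libraries. For each chain the lowest KLE library was at least 13.1 times the highest Ishikawa library. Scaled to transcript length, the chains stood at 18.1 ± 0.623 TPM in Ishikawa and 269 ± 11.1 TPM in KLE for LAMA3 and 8.97 ± 1.11 TPM in Ishikawa and 189.7 ± 4.36 TPM in KLE for LAMB3. The log2 fold changes were 4.40 ± 0.05 for LAMB3 and 3.76 ± 0.04 for LAMA3 (adjusted p = 2.2e-26 and 1.2e-26). The chains of the more widespread laminin-511 did not share this: LAMA5 was not called at 611 ± 109.8 CPM in Ishikawa and 609 ± 21.7 CPM in KLE (called higher at log2 0.15 without Ishikawa control 2), LAMB1 was slightly higher in KLE (log2 0.20 ± 0.05) and LAMC1 lower (log2 -0.56 ± 0.03). In the basement membrane list 7 of 18 tested genes were called higher in KLE and 6 lower. The lower ones included HSPG2, the perlecan core protein, at 188 ± 18 CPM in Ishikawa and 89.9 ± 3.65 CPM in KLE, and NID1, which links laminin to collagen IV, at 5.34 ± 0.481 CPM in Ishikawa and 2.44 ± 0.335 CPM in KLE.

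The integrin chains were higher too. ITGA3 (chromosome 17, 50055968 to 50090481) gave 43.2, 49.9 and 41.3 CPM in the Ishikawa libraries and 751, 791 and 769.5 CPM in the KLE libraries, a log2 fold change of 4.09 ± 0.05 (adjusted p = 7.5e-25). ITGB4, the hemidesmosomal chain, gave 192, 213 and 184 CPM in the Ishikawa libraries and 684, 721 and 726 CPM in the KLE libraries, and its partner ITGA6 222 ± 12.7 CPM in Ishikawa and 396 ± 8.38 CPM in KLE. The TGF-beta activating chains ITGB6 and ITGB8 were also higher, at log2 1.99 ± 0.08 and 1.38 ± 0.06, and so was the fibronectin receptor chain ITGA5 at 0.89 ± 0.10. ITGA1, a collagen receptor chain, went the other way with 29 ± 2.52 CPM in Ishikawa and 10.4 ± 0.408 CPM in KLE. Of 19 integrins tested 9 were called higher in KLE and 3 lower (median log2 0.34, against -0.004 for all tested genes), and the counts were the same without Ishikawa control 2. CD44, the hyaluronan receptor, gave 52.1, 49.6 and 52.8 CPM in the Ishikawa libraries and 384, 383 and 374 CPM in the KLE libraries.

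**Figure D2:**
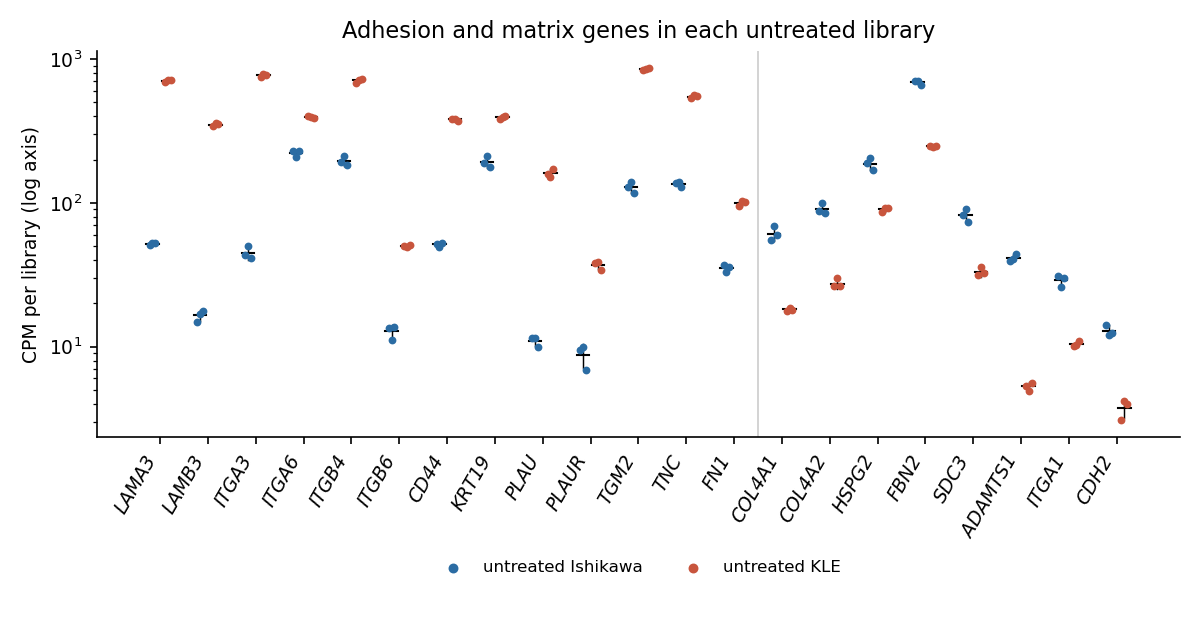
CPM of 21 adhesion and matrix genes in each untreated library on a log axis, with points for the 3 libraries of a line, a line at their mean and a bar of 1 SD to each side. The 13 genes left of the vertical line were higher in KLE and the 8 right of it lower, and no KLE library overlaps an Ishikawa library for any of them. The genes were picked with their values known, and 55.1% of all tested genes also lack overlap.

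Epithelial genes leaned to KLE. Of 37 tested junction and surface genes 20 were called higher in KLE and 4 lower, most by less than 2-fold. CLDN1, a tight junction claudin, gave 238 ± 15.7 CPM in Ishikawa and 596 ± 22.4 CPM in KLE. CDH1 was not called (log2 -0.03 ± 0.03). Of 14 tested keratins 10 were called higher in KLE and 0 lower, 9 and 0 without Ishikawa control 2. The simple-epithelium keratins made up the bulk, with KRT8 at 983 ± 70.1 CPM in Ishikawa and 1411 ± 11.5 CPM in KLE, KRT18 at 554 ± 55.9 CPM in Ishikawa and 978 ± 25.1 CPM in KLE and KRT19 at 192 ± 17.2 CPM in Ishikawa and 394 ± 10.4 CPM in KLE. KRT5, a basal-cell keratin, gave 3.82, 0.344 and 2.89 CPM in the Ishikawa libraries and 29.4, 35 and 34.7 CPM in the KLE libraries. Its log2 fold change was 4 ± 0.44, and 3.31 without Ishikawa control 2, the library with the lowest value. KRT80 was higher too, at 8.54 ± 0.703 CPM in Ishikawa and 58.8 ± 3.2 CPM in KLE.

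Cadherins leaned to Ishikawa, with 12 of 20 tested called lower in KLE and 6 higher, 12 and 4 without Ishikawa control 2. CDH2, the cadherin of neurons and mesenchyme, gave 14.2, 12.1 and 12.5 CPM in the Ishikawa libraries and 3.1, 4.18 and 3.99 CPM in the KLE libraries, and PCDH9, a protocadherin, 40.8 ± 2.74 CPM in Ishikawa and 7.83 ± 0.153 CPM in KLE. ZEB1 and SNAI1, repressors of epithelial genes, were both lower in KLE. ZEB1 stood at 6 ± 0.625 CPM in Ishikawa and 1.6 ± 0.219 CPM in KLE, and SNAI1 at 17.2 ± 2.39 CPM in Ishikawa and 4.58 ± 0.247 CPM in KLE. In the mesenchymal list as a whole 8 of 23 were called higher and 8 lower, and FN1, fibronectin, was among the higher at 35.3 ± 1.98 CPM in Ishikawa and 99.7 ± 3.95 CPM in KLE. VIM was not called and gave 6.12, 0.803 and 9.22 CPM in the Ishikawa libraries and 7.82, 11.4 and 12 CPM in the KLE libraries, low in Ishikawa control 2 as the stromal traces were. Among immunoglobulin-type adhesion molecules 9 of 22 were called higher in KLE and 8 lower. ALCAM gave 97.4 ± 6.58 CPM in Ishikawa and 270.2 ± 3.34 CPM in KLE and L1CAM 3.22 ± 0.415 CPM in Ishikawa and 13.1 ± 1.41 CPM in KLE, both higher, and SDK1 gave 19.5 ± 1.7 CPM in Ishikawa and 3.01 ± 0.423 CPM in KLE, lower.

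Urokinase and its receptor were higher in KLE. PLAU, the urokinase that turns plasminogen into plasmin (chromosome 10, 73909177 to 73917497), gave 11.5, 11.4 and 10 CPM in the Ishikawa libraries and 159, 152 and 172 CPM in the KLE libraries (log2 fold change 3.87 ± 0.06, adjusted p = 2.2e-23). PLAUR, its surface receptor, gave 9.42, 9.9 and 6.87 CPM in the Ishikawa libraries and 37.9, 38.9 and 34.2 CPM in the KLE libraries. TGM2, a crosslinker of matrix proteins, gave 128, 139 and 118 CPM in the Ishikawa libraries and 838, 853 and 861 CPM in the KLE libraries, and the metalloprotease inhibitors TIMP1 and TIMP2 differed by log2 2.33 ± 0.09 and 1.27 ± 0.07. Of 48 tested proteases, inhibitors and crosslinkers 20 were called higher in KLE, 14 of them at least 2-fold, and 16 lower. LOX, the copper enzyme that crosslinks collagen, was lower at 31 ± 1.9 CPM in Ishikawa and 15.3 ± 0.215 CPM in KLE, as was ADAMTS15 at 35.9 ± 4.51 CPM in Ishikawa and 7.58 ± 0.264 CPM in KLE.

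Matrix proteins differed in both directions. TNC, tenascin C, gave 138, 139.8 and 129 CPM in the Ishikawa libraries and 532, 559 and 552 CPM in the KLE libraries, FBLN1, fibulin 1, gave 32.5 ± 2.12 CPM in Ishikawa and 224 ± 6.1 CPM in KLE, and TGFBI, an RGD adhesion protein, 25.1 ± 1.96 CPM in Ishikawa and 142 ± 2.4 CPM in KLE, all higher in KLE. FBN2, a microfibril protein, was lower, with 702, 699.7 and 665 CPM in the Ishikawa libraries and 247, 246 and 249.6 CPM in the KLE libraries. SDC3 and GPC4, heparan sulfate proteoglycans of the surface, were lower at log2 -1.31 ± 0.08 and -0.82 ± 0.06. In the list of 50 tested glycoproteins and proteoglycans 14 were called in each direction, 56.0% of the list against 50.0% of all tested genes. Of 33 tested collagens 13 were called lower in KLE and 8 higher, 12 and 7 without Ishikawa control 2. That is 63.6% of the list against 50.0% of all tested genes. The median log2 fold change of the collagens was -0.1, and 0.01 without that library. COL4A1 and COL4A2, the common pair of collagen IV chains, were lower in KLE. COL4A1 gave 55, 68.5 and 59.9 CPM in the Ishikawa libraries and 17.8, 18.6 and 18.1 CPM in the KLE libraries. COL4A2 gave 88.4, 100.2 and 85 CPM in the Ishikawa libraries and 26.2, 30 and 26.2 CPM in the KLE libraries, with the same separation of the lines. The rarer pair was higher in KLE, with COL4A4 at 11.1 ± 2.4 CPM in Ishikawa and 30.3 ± 1.13 CPM in KLE and COL4A3 at 0.549 ± 0.136 CPM in Ishikawa and 2.59 ± 0.205 CPM in KLE. COL15A1 and COL2A1 were lower, by log2 -2.30 ± 0.21 and -2.41 ± 0.28.

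Genes of the AP-1 factors, which bind TGANTCA, were in the list of stress and immediate-early genes, of which 21 of 27 tested were called higher in KLE and 2 lower. FOSL1, the AP-1 subunit FRA1, gave 13.5, 12.9 and 13.6 CPM in the Ishikawa libraries and 92.4, 91.9 and 90.8 CPM in the KLE libraries (log2 2.79 ± 0.08), while JUN, its usual partner, was not called at 93.6 ± 14.6 CPM in Ishikawa and 103 ± 2.39 CPM in KLE (called higher at log2 0.24 without Ishikawa control 2). FOSB and EGR1 were higher with wide spread. FOSB stood at 50.5 ± 7.16 CPM in Ishikawa and 125 ± 10.8 CPM in KLE, EGR1 at 199.5 ± 38.7 CPM in Ishikawa and 402 ± 73.1 CPM in KLE, and IER3 gave 4.73 ± 1.29 CPM in Ishikawa and 24.3 ± 0.706 CPM in KLE. CRYAB, a small heat shock protein, had a log2 fold change of 2.75 ± 0.30, and 2.12 without Ishikawa control 2. The letters TGANTCA, read on either strand (the motif is its own reverse complement), stood in the 250 bases before the start of 6.6% of the 27305 genes in the RefSeq promoter table of GRCh38.p14. They stood before 62 of the 550 matched genes called at least 2-fold higher in KLE (11.3%), 22 of the 502 called at least 2-fold lower (4.38%) and 3.99% of the 10928 matched tested genes, using the start listed at the top for each gene. A match of letters is not a bound site. At least 2 matches, as before LAMA3, stood in 0.385% of all promoters. LAMB3 had a match at 1 of its 3 listed starts and PLAU at 0 of 2. Among the other chosen genes with a listed start, MT2A had a match at 1 of 1. CD44, NT5E and MT1X had 0 of 1, and AXL had 0 of 2. The sequences before LAMA3 (chr18:23872770-23873019, plus strand, a start inside the longer gene) and PLAUR (chr19:43670170-43670419, minus strand) are shown, as genes of this section that hold the letters, 5′ to 3′ and ending at the base before the start, with the matches in capitals.

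LAMA3: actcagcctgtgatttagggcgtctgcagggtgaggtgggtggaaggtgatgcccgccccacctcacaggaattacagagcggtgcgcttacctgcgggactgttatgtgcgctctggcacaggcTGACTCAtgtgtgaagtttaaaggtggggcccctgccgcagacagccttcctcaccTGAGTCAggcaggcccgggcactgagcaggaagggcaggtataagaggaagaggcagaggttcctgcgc

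PLAUR: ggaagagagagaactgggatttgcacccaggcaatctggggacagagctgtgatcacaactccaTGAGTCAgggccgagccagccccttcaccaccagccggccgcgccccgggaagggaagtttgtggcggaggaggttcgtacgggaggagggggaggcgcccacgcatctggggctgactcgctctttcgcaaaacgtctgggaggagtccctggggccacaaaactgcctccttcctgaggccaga

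EGF family ligands and the MET and AXL receptors were higher in KLE. MET, the receptor of hepatocyte growth factor, gave 28.5, 24.3 and 23.4 CPM in the Ishikawa libraries and 228, 228 and 228 CPM in the KLE libraries (log2 3.17 ± 0.06, adjusted p = 7.9e-23). HBEGF, a ligand of EGFR, gave 7.9, 7.91 and 8.92 CPM in the Ishikawa libraries and 52.1, 48.3 and 51.7 CPM in the KLE libraries. TGFA, another, gave 125, 121 and 125 CPM in the Ishikawa libraries and 287, 309.7 and 298 CPM in the KLE libraries, and AREG, also a ligand, 0.455 ± 0.0313 CPM in Ishikawa and 3.81 ± 0.158 CPM in KLE. EGFR itself was higher at 66.9 ± 5.32 CPM in Ishikawa and 140.2 ± 3.35 CPM in KLE, while ERBB2 and ERBB3 were lower by less (log2 -0.38 ± 0.05 and -0.46 ± 0.05). LRIG1, which restrains ERBB receptors, was lower at 109 ± 7.6 CPM in Ishikawa and 39.2 ± 2.31 CPM in KLE, and ERRFI1, an inhibitor of EGFR, higher at 89.2 ± 4.4 CPM in Ishikawa and 168 ± 2.02 CPM in KLE. Of 15 tested genes of the ERBB list, which also holds LRIG1, 6 were called in each direction. Among 47 other receptor tyrosine kinases and ligands 18 were higher in KLE and 14 lower. The insulin-like growth factor genes were among the lower ones, with IGFBP3 at 368, 382 and 372 CPM in the Ishikawa libraries and 64.6, 70.5 and 68.1 CPM in the KLE libraries and IGF1R at 68.6 ± 1.93 CPM in Ishikawa and 21.1 ± 0.762 CPM in KLE.

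FGF signalling differed by member. FGFR3 gave 25.1, 31 and 24.5 CPM in the Ishikawa libraries and 4.79, 6.25 and 6.43 CPM in the KLE libraries, lower in KLE, and FGFR2 2.65 ± 0.675 CPM in Ishikawa and 9.34 ± 0.891 CPM in KLE, higher. FGF2, a ligand, and FGFBP1, which frees FGFs from the matrix, were higher. FGF2 stood at 1.46 ± 0.316 CPM in Ishikawa and 7.4 ± 0.61 CPM in KLE, and FGFBP1 at 12 ± 1.45 CPM in Ishikawa and 94.1 ± 5.9 CPM in KLE. The FGF list also holds related genes that are neither ligands nor receptors, such as FGFBP1. Of its 25 tested members 8 were called higher in KLE and 13 lower, which is 84.0% of the list against 50.0% of all genes.

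The WNT target genes LGR5, AXIN2 and NKD1 were lower in KLE. LGR5, the R-spondin receptor and a stem cell marker (chromosome 12, 71439770 to 71586310), gave 48.6, 51.8 and 47.8 CPM in the Ishikawa libraries and 6.2, 7.58 and 7.4 CPM in the KLE libraries (log2 -2.80 ± 0.11). AXIN2 and NKD1, feedback inhibitors that the pathway induces, were lower as well. AXIN2 gave 13.3, 16.9 and 12.7 CPM in the Ishikawa libraries and 4.86, 4.55 and 4.76 CPM in the KLE libraries. NKD1 gave 24.1, 28.1 and 25.3 CPM in the Ishikawa libraries and 9.58, 8.86 and 8.11 CPM in the KLE libraries. WNT3A, a ligand of the beta-catenin branch, was lower at 7.02 ± 0.885 CPM in Ishikawa and 2.09 ± 0.283 CPM in KLE, but the ligands WNT7A and WNT7B were higher. WNT7A stood at 6.81 ± 0.156 CPM in Ishikawa and 28.4 ± 1.73 CPM in KLE, and WNT7B at 5.52 ± 0.402 CPM in Ishikawa and 13.4 ± 0.34 CPM in KLE. The orphan receptors ROR1 and ROR2 moved apart, at log2 2.06 ± 0.09 and -2.13 ± 0.26. Of 40 tested WNT genes 8 were called higher in KLE and 15 lower, 7 and 14 without Ishikawa control 2, and the share called was 57.5%.

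Notch genes were called lower in KLE more often than higher. NRARP, a target and inhibitor of Notch, gave 55.9, 57.1 and 62.7 CPM in the Ishikawa libraries and 16.6, 17 and 16 CPM in the KLE libraries, NOTCH3 gave 115 ± 15.8 CPM in Ishikawa and 46.4 ± 3.2 CPM in KLE, and NOTCH1 28.9 ± 2.83 CPM in Ishikawa and 15.5 ± 1.37 CPM in KLE. HES1, a main Notch target, was lower by log2 -0.78 ± 0.11. Of 28 tested Notch genes 15 were called lower in KLE and 3 higher, and 11 and 2 without Ishikawa control 2. Calls made up 64.3% of the list against 50.0% of all tested genes. Without that library 6548 of 13785 genes were called, and the share of the Notch list was no longer above that of all genes. RBPJ, the DNA-binding factor of the pathway, was not called at 132 ± 9.4 CPM in Ishikawa and 133 ± 3.67 CPM in KLE. ID2, ID3 and ID4, targets of BMP, were lower at log2 -1.63 ± 0.11, -1.13 ± 0.15 and -1.29 ± 0.13, and ID1 was not called at 65.5 ± 15 CPM in Ishikawa and 63 ± 7.39 CPM in KLE. BMPR1B, a BMP receptor, was lower at 11.2 ± 1.05 CPM in Ishikawa and 2.82 ± 0.131 CPM in KLE, although BMP4, a ligand, was higher at 2.43 ± 0.626 CPM in Ishikawa and 12.4 ± 1.29 CPM in KLE. LRRC32, the GARP protein that holds latent TGF-beta at the surface, gave 96.5, 114 and 99.9 CPM in the Ishikawa libraries and 15.8, 15.5 and 12.9 CPM in the KLE libraries. SMAD3, a TGF-beta effector, gave 29.8, 29.6 and 28 CPM in the Ishikawa libraries and 135, 128 and 127 CPM in the KLE libraries, and LTBP2, a latent TGF-beta binding protein family member, 2.88 ± 0.684 CPM in Ishikawa and 44 ± 1.04 CPM in KLE, both higher in KLE. The joint list of TGF-beta, BMP and activin genes had 28 of 50 called lower and 13 higher. The Hedgehog list had 4 of 8 lower and 0 higher, CDON by log2 -1.38 ± 0.06 and PTCH1, SMO and SUFU by less than 1. That is 50.0% of the list, the share of all tested genes, and PTCH1 and SUFU were not called with limma on log2(TPM + 1).

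**Figure D3:**
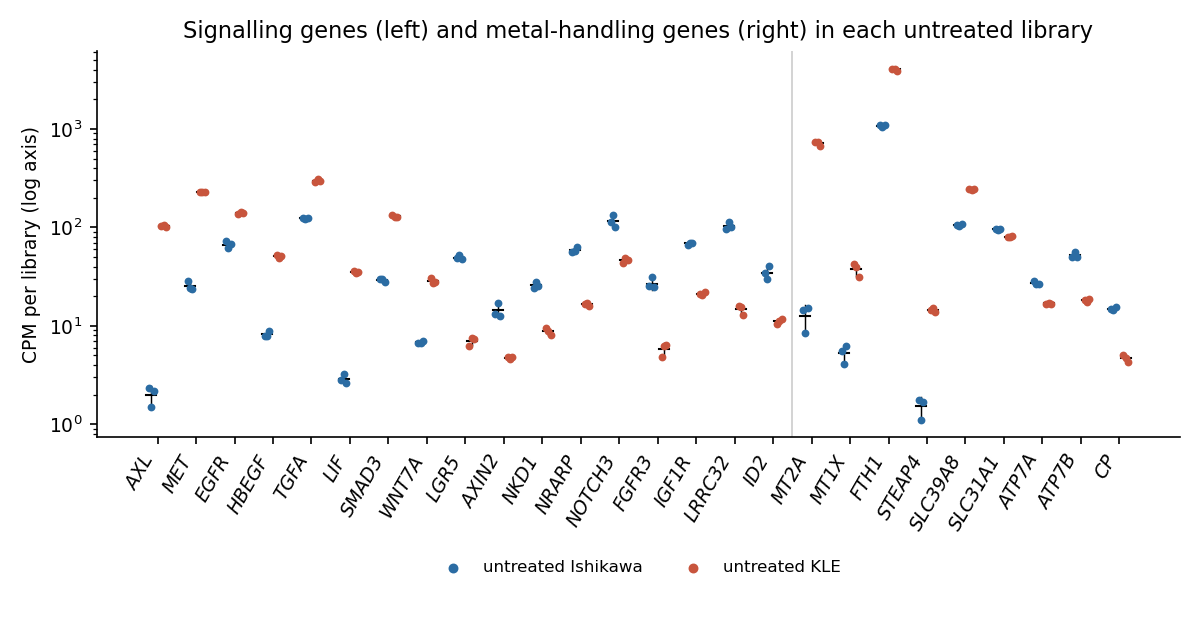
CPM of 17 signalling genes and 9 metal-handling genes in each untreated library on a log axis, with points for the 3 libraries of a line, a line at their mean and a bar of 1 SD to each side. The lines do not overlap for any of the 26 genes, from MT2A with 713 against 12.7 CPM to SLC31A1 with 80.5 against 95.3 CPM. The genes were picked with their values known, and 55.1% of all tested genes also lack overlap.

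Guidance receptors and cytokines included some of the larger differences. NRP2, a semaphorin and VEGF co-receptor, gave 3.42, 3.33 and 3.31 CPM in the Ishikawa libraries and 76.8, 70.9 and 72.1 CPM in the KLE libraries (log2 4.45 ± 0.09), and NRP1 gave 0.382 ± 0.259 CPM in Ishikawa and 3.35 ± 0.316 CPM in KLE. EPHB2 was higher in KLE at 3.85 ± 0.439 CPM in Ishikawa and 25.5 ± 1.11 CPM in KLE and EPHB3 lower at 64 ± 7.4 CPM in Ishikawa and 15.4 ± 0.341 CPM in KLE, though both are receptors for B-type ephrins. Of 28 semaphorin, plexin and neuropilin genes 8 were called higher and 12 lower, and of 17 ephrin and Eph genes 4 and 7. LIF, a cytokine of the implanting endometrium, gave 2.83, 3.21 and 2.59 CPM in the Ishikawa libraries and 36, 34.2 and 35.3 CPM in the KLE libraries, while its receptor LIFR was lower at 19.3 ± 2.26 CPM in Ishikawa and 5.79 ± 0.463 CPM in KLE. The inflammatory cytokines were low in Ishikawa. IL1A gave 0.198, 0.115 and 0.241 CPM in the Ishikawa libraries and 5.57, 3.58 and 5.4 CPM in the KLE libraries. CXCL8, a neutrophil chemokine, gave 2.9, 2.75 and 3.13 CPM in the Ishikawa libraries and 20.9, 15.3 and 17.2 CPM in the KLE libraries, and TNF gave 0.593, 0.344 and 1.21 CPM in the Ishikawa libraries and 5.92, 5.28 and 7.27 CPM in the KLE libraries. Of 47 tested cytokine genes 23 were called higher in KLE and 10 lower, 21 and 8 without Ishikawa control 2. Interferon and antigen genes were near the background, with 26 of 48 called. IFI6 and IFI44L, interferon-induced genes, were lower. IFI6 stood at 8.06 ± 2.45 CPM in Ishikawa and 0.854 ± 0.253 CPM in KLE, and IFI44L at 6.41 ± 0.49 CPM in Ishikawa and 1.07 ± 0.289 CPM in KLE. CD74, the MHC class II chaperone, was higher at 8.82 ± 1.88 CPM in Ishikawa and 24.7 ± 2.78 CPM in KLE. Of 51 G protein coupled receptors and related genes 15 were higher and 19 lower, with GPRC5A at 88.8 ± 2.85 CPM in Ishikawa and 333 ± 9.25 CPM in KLE and ADORA1, an adenosine receptor, at 8.31 ± 1.22 CPM in Ishikawa and 40.2 ± 3.7 CPM in KLE among the higher.

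**Figure D4:**
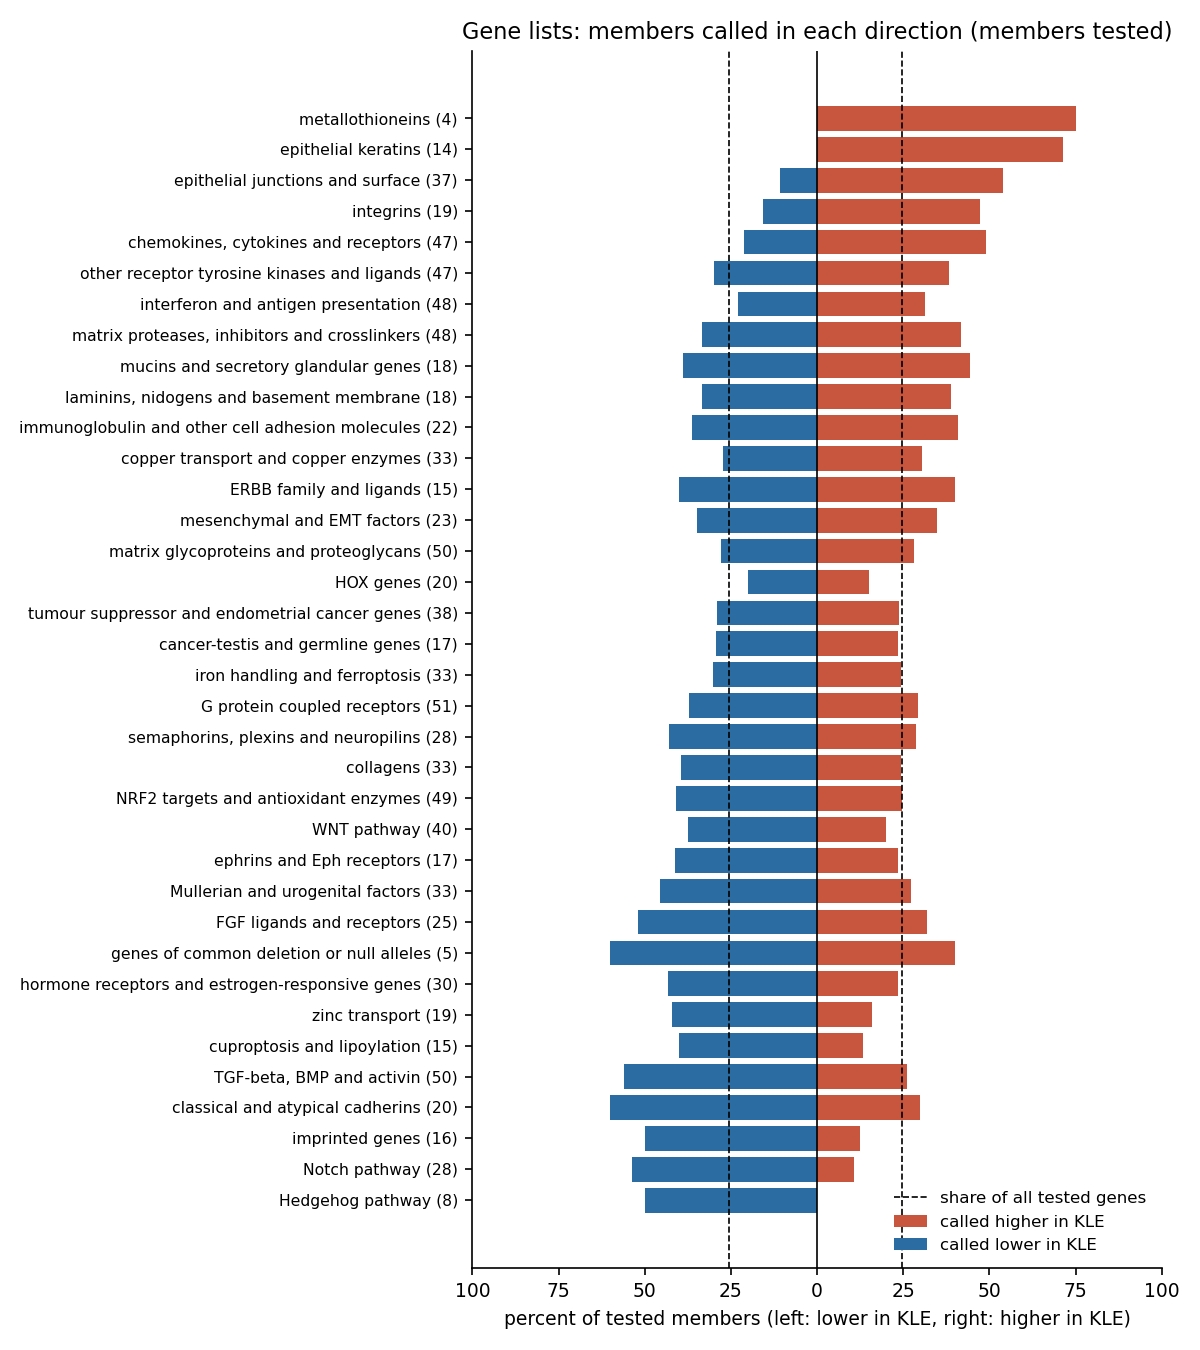
Percent of the tested members of 36 gene lists called higher in KLE (bars to the right) or lower in KLE (bars to the left), with the number tested in brackets. Dashed lines mark the shares of all tested genes, 24.5% higher and 25.6% lower. Keratins, junction genes and integrins extend beyond the right line only, and Notch genes beyond the left only. Some lists pass both lines, among them cadherin and TGF-beta genes, which extend further to the left.

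Factors of the Müllerian and urogenital tract differed in both directions, mostly by less than 2-fold. EMX2 and MSX1 were lower in KLE. MSX1, a homeobox factor of the endometrium, gave 130.1, 178 and 113 CPM in the Ishikawa libraries and 22.4, 21.6 and 23 CPM in the KLE libraries and EMX2, a factor of the developing urogenital tract, 37.6, 34.7 and 41.1 CPM in the Ishikawa libraries and 7.82, 7.64 and 6.69 CPM in the KLE libraries. SOX9, a factor of glandular progenitors, was higher at 57.7 ± 2.93 CPM in Ishikawa and 91.6 ± 3.02 CPM in KLE, and FOXO1, a factor of decidualising cells, was higher at 29.5 ± 1.96 CPM in Ishikawa and 57 ± 2.68 CPM in KLE. Of 33 tested factors 9 were called higher and 15 lower, with LHX1 the extreme. HOX genes, which mark position along the body axis, were called below the background, 7 of 20 (35.0%), with HOXA3 at 4.06 ± 0.768 CPM in Ishikawa and 13.8 ± 1.76 CPM in KLE the furthest apart. Hormone receptors and estrogen-responsive genes, in 1 list, had 13 of 30 called lower in KLE and 7 higher. Among the lower ones AGR2, a chaperone of secretory cells, gave 82.7 ± 6.73 CPM in Ishikawa and 29.2 ± 1.68 CPM in KLE, TFF3, a trefoil peptide, 3.75 ± 1.3 CPM in Ishikawa and 0.28 ± 0.0855 CPM in KLE, and GREB1 16 ± 0.695 CPM in Ishikawa and 6.72 ± 0.508 CPM in KLE. NR3C1, the glucocorticoid receptor, was higher in KLE at 29.5 ± 2.29 CPM in Ishikawa and 64.9 ± 4.37 CPM in KLE, and so was PAEP, the glycodelin of secretory endometrium, at 0.0767 ± 0.0489 CPM in Ishikawa and 1.6 ± 0.589 CPM in KLE.

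Secretory products of glandular epithelium differed in both directions, with 8 of 18 called higher in KLE and 7 lower. LCN2, the siderophore-binding lipocalin, gave 60.8, 51.7 and 63 CPM in the Ishikawa libraries and 248, 214 and 232 CPM in the KLE libraries, MUC4, a membrane mucin, 13.7 ± 1.37 CPM in Ishikawa and 57 ± 1.05 CPM in KLE, and MUC20 11.7 ± 0.458 CPM in Ishikawa and 42.5 ± 3.87 CPM in KLE. WFDC2, the ovarian and endometrial secretory protein HE4, was lower at 154 ± 6.99 CPM in Ishikawa and 60.5 ± 1.77 CPM in KLE, as were FOLR1, the folate receptor, at 37 ± 3.46 CPM in Ishikawa and 10.9 ± 0.679 CPM in KLE and MUC5AC, a gel-forming mucin, at 50.9 ± 4.29 CPM in Ishikawa and 22.2 ± 0.611 CPM in KLE. MSLN, a mesothelial surface protein, gave 0.215 ± 0.0461 CPM in Ishikawa and 3.36 ± 0.502 CPM in KLE while UPK3B and WT1 of the same marker list were not called. UPK3B stood at 17.3 ± 1.15 CPM in Ishikawa and 15.2 ± 0.207 CPM in KLE, and WT1 at 5.28 ± 0.763 CPM in Ishikawa and 5.06 ± 0.436 CPM in KLE. Of 16 imprinted genes 8 were called lower in KLE and 2 higher, 7 and 3 without Ishikawa control 2. PHLDA2, a growth-restraining placental gene, was higher at 31.2 ± 3.82 CPM in Ishikawa and 61.5 ± 3.96 CPM in KLE, and the lower ones included CDKN1C at 10.6 ± 0.717 CPM in Ishikawa and 3.13 ± 0.596 CPM in KLE and MEST at 236 ± 5 CPM in Ishikawa and 124 ± 4.3 CPM in KLE. The cyclin-dependent kinase inhibitors CDKN2B and CDKN1A were higher. CDKN2B stood at 6.38 ± 0.794 CPM in Ishikawa and 19.3 ± 1.41 CPM in KLE, and CDKN1A at 16.1 ± 0.815 CPM in Ishikawa and 35.4 ± 3.52 CPM in KLE. Proliferation genes stayed within 0.66 log2 of equal in each of the 24 tested, with 12 called lower in KLE and 3 higher, and MKI67 gave 1235 ± 52.5 CPM in Ishikawa and 1078 ± 59.3 CPM in KLE.

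The metallothionein MT2A had the largest log2 fold change in the 6 metal-handling lists. MT2A (chromosome 16, 56608199 to 56609497) gave 14.4, 8.45 and 15.2 CPM in the Ishikawa libraries and 737, 733 and 669 CPM in the KLE libraries, a log2 fold change of 5.87 ± 0.15 (adjusted p = 1.6e-09), and 5.58 without Ishikawa control 2, which held the lowest value. MT1X (chromosome 16, 56682424 to 56684196) gave 5.53, 4.05 and 6.21 CPM in the Ishikawa libraries and 42.1, 39.7 and 31.5 CPM in the KLE libraries (log2 2.89 ± 0.16), and MT1F 0.593, 0.726 and 0.482 CPM in the Ishikawa libraries and 3.59, 3.76 and 3.47 CPM in the KLE libraries (log2 2.53 ± 0.20). The KLE libraries lay above all Ishikawa libraries for the 3 genes. Of 12 metallothioneins 4 passed the count filter and 3 were called, all higher in KLE. MT1G passed only on copper-treated libraries, with 1 count in Ishikawa and 2 in KLE, and gives no fold. These genes are near copies, and their separate values rest on a sharing of reads that is not known here. The factor MTF1, which turns them on in excess metal, was not called, with 44.6, 45.6 and 44.5 CPM in the Ishikawa libraries and 42.8, 41.9 and 43.8 CPM in the KLE libraries.

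MTF1 binds metal response elements with the core TGCNCNC. In the 250 bases before the start these letters, on either strand, stood 7 times for MT2A and 4 times for MT1X, in each case counting each position once. Of the 27305 promoters 48.4% held at least 1 such match, 1.7% at least 4 and 0.0952% at least 7. Among the matched genes at least 1 match stood before 54.7% of those called at least 2-fold higher in KLE and 57.2% of those called at least 2-fold lower, near the 56.4% of all matched tested genes. The sequences (MT2A, chr16:56608334-56608583; MT1X, chr16:56682220-56682469; both plus strand, from RefSeq on GRCh38.p14) are shown because these 2 genes carry the metallothionein difference, with the matches in capitals, ending at the base before the start.

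MT2A: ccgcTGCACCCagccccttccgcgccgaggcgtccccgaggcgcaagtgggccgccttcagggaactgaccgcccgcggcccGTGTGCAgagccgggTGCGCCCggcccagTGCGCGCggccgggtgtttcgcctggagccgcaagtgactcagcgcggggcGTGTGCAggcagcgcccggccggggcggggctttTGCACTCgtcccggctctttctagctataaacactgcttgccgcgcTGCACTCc

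MT1X: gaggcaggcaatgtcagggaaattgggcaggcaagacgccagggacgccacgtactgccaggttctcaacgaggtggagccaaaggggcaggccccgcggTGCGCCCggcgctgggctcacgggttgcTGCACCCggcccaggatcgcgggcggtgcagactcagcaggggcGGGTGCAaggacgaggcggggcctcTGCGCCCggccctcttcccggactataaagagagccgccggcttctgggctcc

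The copper pumps and the importer differed less than the metallothioneins and in the other direction. ATP7B (chromosome 13, 51930436 to 52012125) gave 50.3, 56.7 and 50.5 CPM in the Ishikawa libraries and 18.2, 17.5 and 18.9 CPM in the KLE libraries, log2 -1.53 ± 0.07 (adjusted p = 1e-14). ATP7A gave 28.4, 26.6 and 26.6 CPM in the Ishikawa libraries and 16.8, 17.2 and 16.6 CPM in the KLE libraries, log2 -0.69 ± 0.08, and SLC31A1, the copper importer CTR1, gave 95.9, 94.6 and 95.4 CPM in the Ishikawa libraries and 79.5, 79.6 and 82.5 CPM in the KLE libraries, log2 -0.24 ± 0.05. All 3 were lower in every KLE library than in any Ishikawa library, though for SLC31A1 by a small step. ATOX1, the chaperone that hands copper to the ATPases, was higher at 23.7 ± 2.66 CPM in Ishikawa and 37.7 ± 1.71 CPM in KLE. CCS, the chaperone of SOD1, was not called at 3.06 ± 0.43 CPM in Ishikawa and 3.7 ± 0.534 CPM in KLE, nor was SLC31A2 at 0.701 ± 0.0775 CPM in Ishikawa and 1.14 ± 0.401 CPM in KLE. STEAP4, a metalloreductase of copper and iron, gave 1.78, 1.11 and 1.69 CPM in the Ishikawa libraries and 14.3, 15 and 13.8 CPM in the KLE libraries (log2 3.28 ± 0.18), and CP, ceruloplasmin, 14.8, 14.6 and 15.4 CPM in the Ishikawa libraries and 5, 4.73 and 4.25 CPM in the KLE libraries (log2 -1.68 ± 0.12). Of 33 copper genes 10 were called higher and 9 lower, near the background. The cuproptosis and lipoylation genes had 2 of 15 higher and 6 lower, none by 2-fold, which at 53.3% called was also near the background. FDX1, the ferredoxin needed for lipoylation, was not called at 19.4 ± 1.13 CPM in Ishikawa and 19.9 ± 0.514 CPM in KLE, LIAS, the lipoyl synthase, was slightly lower (log2 -0.22 ± 0.09, not called without Ishikawa control 2 at -0.22), and LIPT2 was the furthest at -0.69 ± 0.15.

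The ferritin chains differed from each other. FTH1, the ferritin heavy chain, gave 1095, 1058 and 1100.0 CPM in the Ishikawa libraries and 4106, 4081 and 3922 CPM in the KLE libraries (log2 1.90 ± 0.03, adjusted p = 2e-23), whereas FTL, the light chain, was not called at 709.8 ± 15.7 CPM in Ishikawa and 672 ± 13.8 CPM in KLE (log2 -0.08 ± 0.04, and called lower at -0.09 without Ishikawa control 2). TFRC, the transferrin receptor, was higher by log2 0.36 ± 0.03, and HMOX1, which frees iron from heme, gave 1.14 ± 0.159 CPM in Ishikawa and 3.29 ± 0.227 CPM in KLE. Of 33 tested iron and ferroptosis genes 8 were called higher and 10 lower, 54.5% of the list. SLC39A8, an importer of zinc and manganese, gave 105, 103 and 109 CPM in the Ishikawa libraries and 245, 237 and 243 CPM in the KLE libraries, and SLC30A1, the zinc exporter that MTF1 induces, 88.4 ± 2.1 CPM in Ishikawa and 111 ± 5.12 CPM in KLE, a log2 difference of 0.33 ± 0.07. Zinc transport had 3 of 19 called higher and 8 lower, 57.9% of the list. The iron and zinc shares were near the 50.0% of all tested genes. NQO1, an NRF2 target, was lower with 484, 479 and 496 CPM in the Ishikawa libraries and 260.4, 257 and 256 CPM in the KLE libraries, as were AKR1C3 at 13 ± 0.197 CPM in Ishikawa and 4.72 ± 0.186 CPM in KLE and GSTM3 at 45.6 ± 0.706 CPM in Ishikawa and 24.1 ± 2.21 CPM in KLE, while TXNRD1 was higher by log2 0.35 ± 0.03. The NRF2 and antioxidant list had 20 of 49 lower and 12 higher.

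Summed marker levels of other cell types differed between the lines for some lists. The 18 mesothelial, hepatic and squamous markers summed to 26.7 to 32.7 CPM in Ishikawa and 80.3 to 88.5 CPM in KLE, with KRT5 and LRRN4 the main part in KLE at 33 and 25.5 CPM. Of the 8 tested 3 were called higher in KLE, and 1, TP63, lower, at 3.1 ± 0.348 CPM in Ishikawa and 1.83 ± 0.193 CPM in KLE. That is 50.0% of the list, as among all tested genes. The 20 neural and neuroendocrine markers summed to 69.5 to 75.6 CPM in Ishikawa and 75.1 to 79.2 CPM in KLE. The part of these markers in the results was not tested. The 17 leukocyte markers summed to 8.33 to 11.1 CPM in Ishikawa and 16.6 to 20.7 CPM in KLE, of which CD68, also found in lysosomes of epithelial cells, was 3.59 ± 0.636 CPM in Ishikawa and 12.2 ± 1.68 CPM in KLE. The 15 endothelial and mural markers summed to 100.2 to 120.3 CPM in Ishikawa and 53.6 to 59.6 CPM in KLE, most of it EGFL7 at 84 ± 14 CPM in Ishikawa and 31.1 ± 0.913 CPM in KLE, which was called lower in KLE. PECAM1 and CDH5 of this list were called higher in KLE at low levels. PECAM1 stood at 1.98 ± 0.826 CPM in Ishikawa and 4.86 ± 1.22 CPM in KLE, and CDH5 at 0.245 ± 0.0173 CPM in Ishikawa and 1.22 ± 0.382 CPM in KLE. In all 5 of the 12 tested were called higher and 3 lower, 66.7% of the list. The lower ones were EGFL7, ACTA2 and ERG, with ERG at 5.95 ± 0.795 CPM in Ishikawa and 4.3 ± 0.47 CPM in KLE. In bulk RNA a small share of other cells and a low level in every cell cannot be told apart.

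Called genes lay on each autosome and on X, with directions split unevenly on some. Chromosome 12 held 122 genes called higher in KLE and 298 lower, and chromosome 20 held 161 higher and 69 lower. By chromosome the median log2 fold change ran from -0.116 on chromosome 12 to 0.149 on chromosome 20. In windows of 20 Mb with at least 20 tested genes, 118 of 153 had a median within 0.1 of equal and 4 were beyond 0.3. The 4 were chromosome 20 from 0 to 20 Mb, with a median of 0.43 over 98 genes, chromosome 20 from 60 Mb, with 0.38 over 49, chromosome 12 from 0 to 20 Mb, with -0.35 over 125, and chromosome 7 from 140 Mb, with -0.33 over 86. In the copper-treated libraries the same windows gave medians of 0.46, 0.5, -0.32 and -0.16.

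The copper-treated libraries hold the same lines in samples that the untreated contrast did not use. There 8971 of the 13663 genes (65.7%) were called between the lines. Of the 1458 genes called at least 2-fold without copper 1149 were called in the same direction with it, 38 in the opposite direction and 271 were not called. Of the 175 called genes that the naming rule takes 155 were called in the same direction and 6 in the opposite one. LAMA3 had log2 3.76 ± 0.04 without and 4.15 with copper, ITGA3 4.09 ± 0.05 and 4.16, CD44 2.89 ± 0.04 and 2.71, MET 3.17 ± 0.06 and 3.46, and LGR5 -2.80 ± 0.11 and -3.98. LAMB3 was called higher in KLE in both, at 4.40 ± 0.05 without and 2.51 with copper (difference -1.90, adjusted p = 1.7e-15). MT2A had 5.87 ± 0.15 without and 1.85 with copper, with copper-treated means of 824 ± 13.7 CPM in Ishikawa and 2973 ± 65.6 CPM in KLE, and the difference of the 2 contrasts was -4.02 (adjusted p = 3.2e-07). The 6 that turned were KRT17, MT1F, SLC30A4, HMOX1, TUBB3 and CRYAB. For HMOX1 the copper-treated means were 209 ± 11.9 CPM in Ishikawa and 57.4 ± 5.47 CPM in KLE, and for CRYAB 132 ± 5.42 CPM in Ishikawa and 29.6 ± 2.83 CPM in KLE.

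**Figure D5:**
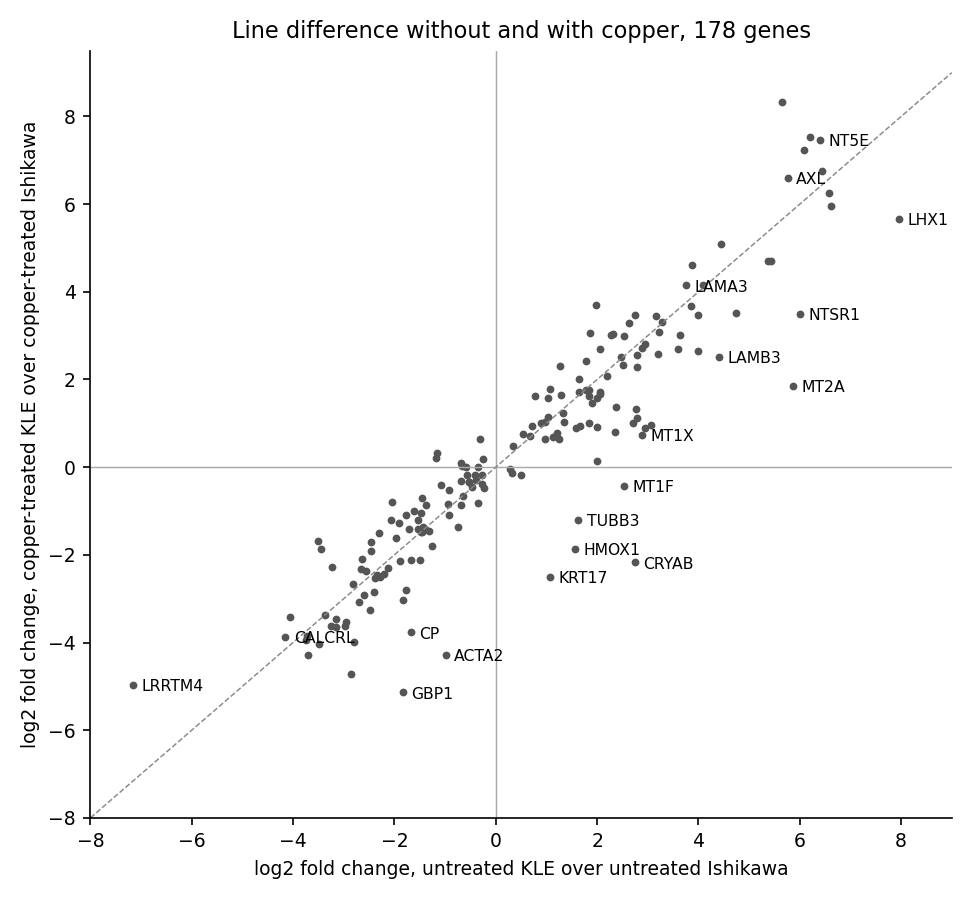
Log2 fold change of KLE over Ishikawa in the untreated libraries (x axis) and in the copper-treated libraries (y axis) for the 178 named genes, with a dashed line of equal values. Most genes lie near that line, and MT2A, LHX1, NTSR1 and MT1X lie below it on the right.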

How the data were processed

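RNA was measured in 12 libraries, 3 in each of 4 groups; the 6 untreated libraries form the comparison. Per the submitters' processing notes the build was GRCh38.p14 and the tools were RSEM, HISAT2 2.1.0, fastp 0.18.0, R 4.2.2, DESeq2 and Bowtie2 2.2.8, with no role stated for each. The deposited tables hold expected counts per gene, 12.8% to 14.1% of them not whole, and the same counts as whole numbers per line; TPM values, scaled to transcript length, were deposited by the authors beside them. The expected counts were rounded before the fit. The sources used here do not say how strand and shared reads were handled.

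The members and lists were chosen with earlier results of these data known. Counts were scaled by TMM, filtered by filterByExpr and tested with edgeR 4.0.16 (quasi-likelihood, robust, R 4.3.3) on all 12 libraries, with Benjamini-Hochberg adjustment over 13663 genes. CPM use TMM-scaled library sizes. A fold change is on the log2 scale, and its SE is the fold change over the square root of F. The script was tested on simulated data in which far fewer genes were changed than were called here. That test does not check error rates at the share of calls seen here. Of 20332 genes 617 had no symbol, and 20113 matched GENCODE v29 (GRCh38) by Ensembl ID, which gave the coordinates. Promoters are those of RefSeq.

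Named genes were the 12 largest differences in each direction among called protein-coding genes (mean CPM of 5 or more, lines not overlapping), at most 4 called genes per list over 43 lists (2 CPM or more in the higher line), metallothioneins, 6 copper transporters and chaperones, and genes restricted to 1 line, of which there were 0. Other list members are examples chosen after their values were seen. Some genes that the rule takes are not reported here. Alternatives were other scalings and filters, DESeq2 1.42.0, limma 3.58.1, fewer libraries, a replicate block and leaving out each library.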

Additional observations from a re-analysis of the deposited data

Results flagged for a closer look

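For 10 of the genes with the largest untreated differences, the line difference itself was not the same with and without copper (interaction in edgeR's quasi-likelihood fit, Benjamini-Hochberg adjusted p under 0.05). The values are log2 KLE over Ishikawa with copper minus that without. The difference shrank most for MT2A, at -4.02, NTSR1, at -2.5, and LHX1, at -2.3, and less for ADGRF1, at -0.68. KLE stood further above Ishikawa with copper for G0S2, at 1.32, NT5E, at 1.06, and AXL, at 0.85. Among genes lower in KLE the gap narrowed for TNFRSF19, at 1.58, and CHGA, at 0.65, and widened for ADAMTS1, at -0.66. The 2 contrasts share no library.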

How the results depend on the processing

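With other scalings, filters, tools and libraries the count of called genes stayed within 1.5 times the 6837 reported, in total and in each direction. Asking also for a 2-fold difference left 1458 genes, 754 higher in KLE and 704 lower. Leaving out 1 untreated library at a time gave 6034 to 6844 called genes, 2970 to 3363 higher in KLE and 3064 to 3481 lower. DESeq2 called 3035 higher and 3125 lower. Scaling by library totals gave 2917 and 3993, so that 42.2% of calls were higher against 48.9%. The median of all genes moved by at most 0.04 on the log2 scale between scalings. Of the 178 named genes 168 stayed on the same side of the threshold under each of the 19 alternatives that gave them a value, 9 lost the call at least once and 1 turned. The 9 were KRT5, PTCH1, SUFU, L3MBTL1, DBT, SLC30A4, CD4, ERG and TP63. The one that turned was MT1G, from 1.03 to -1.72 without KLE control replicate 3, on 1 and 2 counts and not called in either case; leaving out the other libraries in turn gave up to 2.74. No pairing by replicate number was seen. Deviations of same-numbered libraries of the lines correlated at -0.0684, 0.0155 and 0.0724, and those of differently numbered ones at -0.1 to 0.0825. With 3 libraries per group these values cannot decide whether libraries were paired. With the replicate number as a block 3315 genes were higher and 3460 lower over 12 libraries, and 3171 and 3271 over the 6 untreated ones. The fit of the 5 untreated libraries without Ishikawa control 2, chosen after seeing the data, gave 3244 and 3346. Depth limits the fold changes of genes with few counts in 1 line, such as LHX1 and LRRTM4.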
